A study of Mus musculus with 17 samples.

Results

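The set described here holds 32 genes of mitosis and cell division, whose proteins condense and hold chromosomes, build the spindle, time its checkpoint and separate daughter cells. Members were picked by name, and each was read by the probe set (a group of short array probes for 1 transcript) with the highest mean over 17 arrays among probe sets annotated to a single gene symbol. A probe set was found for 31 of the 32 members, out of 18193 genes named on the array. Ccnb1 has no probe set named for it in the annotation used here. Of the 31, 18 were tested, among 12696 genes whose probe set lay above its own array's median in at least 4 arrays. The other 13 were too dim for the test and are described by their values.

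Blood came from 17 female C57BL/6JJcl mice, an inbred laboratory strain, irradiated at the age of 8 weeks and killed 24 h later. The groups were 5 control mice given 0 Gy and 4 mice each given 0.5, 1.0 or 3.0 Gy of X-rays to the total body. Whole blood was profiled with 1 Affymetrix array per mouse, and the labels call the mice biological replicates, so the number of mice limits the precision. Values are the log2 levels the authors deposited, and errors of means are SDs over mice (n = 4 for each dose, n = 5 for control). Differences carry the standard error (SE) of limma, which fits a linear model to each gene and draws its variance towards that of all genes. A call is a two-sided Benjamini-Hochberg adjusted p under 0.05 over the 12696 genes.

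A dividing cell raises the transcripts of these genes together late in the cycle and degrades many of their proteins at its end. Their promoters are repressed in resting cells by the DREAM complex, which sits on CHR elements, and are activated by B-MYB and FOXM1 in dividing cells, with NF-Y binding nearby CCAAT boxes. After DNA damage p53 induces the cyclin-dependent kinase inhibitor p21, encoded by Cdkn1a, and p21 turns this programme down. Circulating blood cells are mostly non-dividing, and young red cells (reticulocytes) still carry RNA made while their precursors divided in the marrow.

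Markers of platelets, T cells, NK cells, mature neutrophils and monocytes lay above the array median on all 17 arrays. Array medians lay between 3.47 and 3.57, and pairs of arrays correlated with a median r of 0.987 within groups and 0.971 between groups, over probe sets, which are not independent replicates. Control probe sets for 18S ribosomal RNA averaged 10.52 ± 0.49 in control, 12.69 ± 0.77 at 0.5 Gy, 13.28 ± 0.28 at 1.0 Gy and 10.68 ± 0.14 at 3.0 Gy, so the 0.5 and 1.0 Gy arrays stood apart from the rest in this measure. Its part in the results was not tested beyond a fit with it as a covariate.

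At 3.0 Gy the mitosis genes did not move as 1 block. Ube2c, Nusap1, Ccna2 and Cenpa fell against control, while Kif22, Mki67, Cdca8, Top2a, Bub1b and Prc1 rose. That is 6 higher and 4 lower of 18 tested, where 20.0% of all genes tested were called higher and 29.2% lower at this dose, 49.1% in either direction. Every 3.0 Gy mouse lay below every control mouse for 4 of the 18 tested members and above for 2 (Cdca8 and Prc1), which held for 22.9% and 14.2% of all genes tested. Cdca8 and Prc1 passed the filter only through irradiated mice, since no control mouse reached its array's median for either. Their separation from control is therefore not independent of the filter, and nor are their calls among the 6 higher. At 0.5 Gy limma called 1 member lower and 0 higher, beside 635 genes lower and 665 higher of the 12696 tested. At 1.0 Gy it called 3 lower and 0 higher, where 8.49% of genes tested were called lower and 8.80% higher. At an unadjusted p under 0.05 the members numbered 1 lower and 3 higher at 0.5 Gy, and 5 lower and 2 higher at 1.0 Gy, beside 1622 and 1154 genes and 2003 and 1608 genes of all tested. In bulk blood, fewer cells of a type and less RNA per cell cannot be told apart.

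Bright and dim members were counted apart. A member is bright here when its mean over 17 arrays reached 5.04, the median of those means over all genes tested. Plk1 (5.04) stood just inside that border and Kif23 (4.83) just outside. Brightness of different probe sets does not give the relative amounts of their transcripts. Of the 7 bright members (Ube2c, Nusap1, Kif22, Ccna2, Cdc20, Mki67 and Plk1), 3 were lower and 2 higher at 3.0 Gy, where 39.9% of bright genes were called lower and 20.9% higher. Of the 11 dim members tested, 1 was lower and 4 were higher, against 18.4% and 19.0% of dim genes. Cdca8 and Prc1 are among those 4 and passed the filter only through irradiated mice, so this count is not independent of the filter. All genes tested were split by brightness as well, with median changes at 3.0 Gy of -0.13 over bright and 0.12 over dim genes. After repeated quantile normalization these medians were 0.04 and 0.14. The difference between bright and dim members was not tested.

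**Figure D1:**
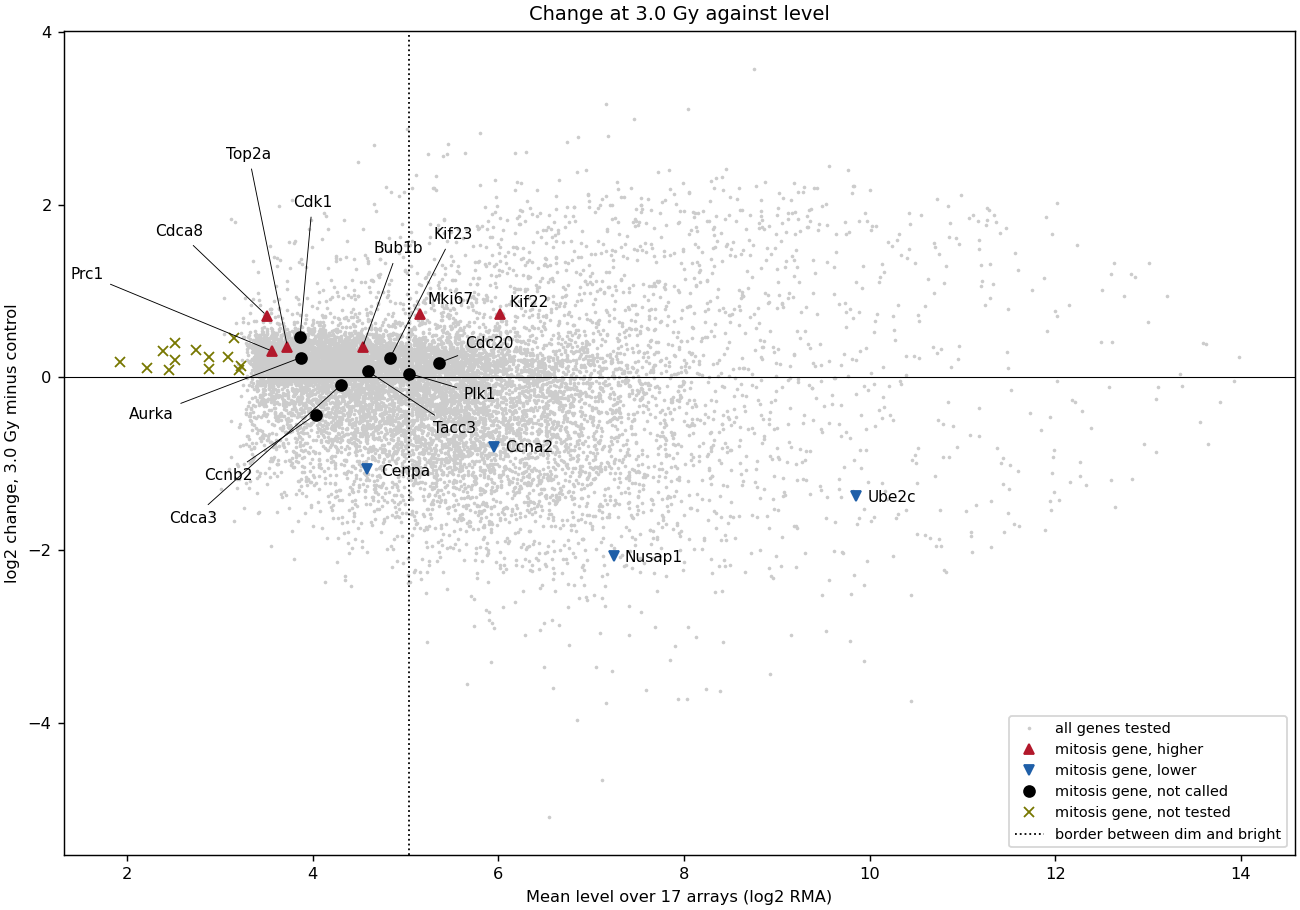
Log2 change at 3.0 Gy minus control (vertical axis) against the mean log2 level over 17 arrays (horizontal axis) for each mitosis gene, with all 12696 genes tested in grey and the border of 5.04 between dim and bright genes dotted. Nusap1, Ube2c, Cenpa and Ccna2 lie between -2.07 and -0.80, the 6 called higher lie between 0.30 and 0.74, and the 13 untested members (crosses) sit at the dim end, all above 0.

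Promoter sequences are shown for 6 members, since the elements that bind DREAM and NF-Y are the known link between these genes. The windows run 300 bases, from 250 before to 50 after the start site, 5′ to 3′ along the gene, from RefSeq on build GRCm38.p6. Capitals mark TTTGAA or TTTAAA (the CHR letters) and CCAAT, on either strand, so the reverse complements TTCAAA and ATTGG are in capitals too. The members are Ube2c (chr2:164769679-164769978, plus strand), Nusap1 (chr2:119618048-119618347, plus strand) and Cenpa (chr5:30666636-30666935, plus strand), lower at 3.0 Gy than in control. Ccnb2 (chr9:70421505-70421804, minus strand) was lower at 3.0 than at 0.5 Gy. Cdca8 (chr4:124936868-124937167, minus strand) and Kif22 (chr7:127042371-127042670, minus strand) were higher at 3.0 Gy than in control.
Ube2c: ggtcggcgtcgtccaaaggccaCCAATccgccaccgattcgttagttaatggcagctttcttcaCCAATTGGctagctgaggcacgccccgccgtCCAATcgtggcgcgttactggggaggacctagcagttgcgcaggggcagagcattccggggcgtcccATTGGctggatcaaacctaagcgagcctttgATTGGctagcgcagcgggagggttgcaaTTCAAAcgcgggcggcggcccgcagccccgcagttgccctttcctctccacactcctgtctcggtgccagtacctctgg
Nusap1: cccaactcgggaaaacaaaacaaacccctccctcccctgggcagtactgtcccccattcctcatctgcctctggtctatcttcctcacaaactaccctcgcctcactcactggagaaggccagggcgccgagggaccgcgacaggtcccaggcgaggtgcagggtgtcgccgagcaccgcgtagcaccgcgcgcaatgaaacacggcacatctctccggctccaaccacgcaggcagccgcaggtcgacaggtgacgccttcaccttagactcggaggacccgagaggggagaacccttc
Cenpa: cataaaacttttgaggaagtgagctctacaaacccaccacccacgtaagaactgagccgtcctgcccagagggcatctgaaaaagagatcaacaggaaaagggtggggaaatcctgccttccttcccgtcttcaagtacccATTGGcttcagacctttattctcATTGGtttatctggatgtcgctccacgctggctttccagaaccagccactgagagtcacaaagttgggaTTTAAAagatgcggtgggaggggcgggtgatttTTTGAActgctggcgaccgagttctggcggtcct
Ccnb2: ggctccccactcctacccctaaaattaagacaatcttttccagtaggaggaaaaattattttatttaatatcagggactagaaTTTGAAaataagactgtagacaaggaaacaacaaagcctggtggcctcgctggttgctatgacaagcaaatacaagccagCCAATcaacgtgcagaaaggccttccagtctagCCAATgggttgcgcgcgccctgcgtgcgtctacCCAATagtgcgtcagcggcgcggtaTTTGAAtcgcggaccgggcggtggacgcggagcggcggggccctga
Cdca8: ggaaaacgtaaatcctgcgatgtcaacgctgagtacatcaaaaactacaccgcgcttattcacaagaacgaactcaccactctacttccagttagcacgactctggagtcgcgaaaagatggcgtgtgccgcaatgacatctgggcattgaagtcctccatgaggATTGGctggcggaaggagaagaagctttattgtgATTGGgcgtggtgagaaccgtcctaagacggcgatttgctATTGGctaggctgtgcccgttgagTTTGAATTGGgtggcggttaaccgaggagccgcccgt
Kif22: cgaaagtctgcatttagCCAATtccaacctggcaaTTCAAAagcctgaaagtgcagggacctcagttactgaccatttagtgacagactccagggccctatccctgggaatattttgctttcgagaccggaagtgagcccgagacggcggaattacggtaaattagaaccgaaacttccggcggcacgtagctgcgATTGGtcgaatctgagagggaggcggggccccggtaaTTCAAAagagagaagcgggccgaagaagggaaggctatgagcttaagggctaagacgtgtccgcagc

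Ube2c carried 1 CHR match, at position -29 from the start site, and 6 CCAAT matches, of which a pair overlap as CCAATTGG. Cenpa carried CHR letters at -17 and 17, Ccnb2 at -167 and 5, Cdca8 at 14, and Kif22 at -215 and -17. The Nusap1 window held neither motif, which says only that these letters are not in this window. Windows were found for 27 members (28 windows, 2 of them for Prc1), and Ccna2, Aurkb, Kif20a, Tpx2 and Pbk had none. CHR letters were in 23 of the 28 windows (82.1%), against 27.6% of 32851 windows of all genes, and CCAAT was in 24 (85.7%), against 37.4%. Both motifs stood in 22 windows (78.6%), against 10.7% of all windows. The letters did not separate the directions: all 6 members called higher at 3.0 Gy held both motifs, and so did Ube2c and Cenpa among the lower ones.

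Among cyclins and their kinase, Ccna2 encodes cyclin A2, which drives S phase and the entry into mitosis. Its level was 6.75, 6.50, 5.81, 5.97 and 6.02 in control mice, 6.35, 6.15, 6.69 and 6.14 at 0.5 Gy, 5.60, 5.79, 5.93 and 5.87 at 1.0 Gy, and 5.35, 5.59, 5.27 and 5.43 at 3.0 Gy. Every 3.0 Gy mouse lay below every control mouse and every 0.5 Gy mouse. The mean was 5.41 ± 0.13 at 3.0 Gy and 6.21 ± 0.40 in control, a log2 change of -0.80 (SE 0.17, limma adjusted p = 0.000631), 1.74-fold lower. Against 0.5 Gy (6.34 ± 0.26) the change was -0.93 (SE 0.18, adjusted p = 0.000616). At 1.0 Gy the difference from control was -0.42 (adjusted p = 0.103), and without control replicate 3 it was -0.52 (adjusted p = 0.0443). A second Ccna2 probe set, 1417911_at, above the array median on all arrays, averaged 4.78 at 3.0 Gy and 4.92 in control, so the size of the fall depends on the probe set.

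Ccnb2 encodes cyclin B2, which activates Cdk1 at the entry into mitosis. It read 4.89, 4.22, 3.81, 3.88 and 4.11 in control mice, 4.54, 4.11, 4.47 and 4.11 at 0.5 Gy, 3.77, 3.58, 4.12 and 3.91 at 1.0 Gy, and 3.65, 4.01, 3.72 and 3.63 at 3.0 Gy. All 3.0 Gy mice lay below all 0.5 Gy mice, and 1 of them, replicate 2, lay inside the control range. The mean was 3.75 ± 0.18 at 3.0 Gy and 4.31 ± 0.23 at 0.5 Gy, a change of -0.56 (SE 0.19, adjusted p = 0.0312). This call ended when any of 5 mice was left out (3.0 Gy replicates 1, 3 or 4, 0.5 Gy replicates 1 or 3), with adjusted p up to 0.0836. Against control (4.18 ± 0.43) the 3.0 Gy difference of -0.43 did not pass (adjusted p = 0.0561), and it passed without 3.0 Gy replicate 2, control replicate 3 or control replicate 4 (adjusted p 0.0272 to 0.037). Cdk1, the kinase that starts mitosis, differed by 0.47 at 3.0 Gy (95% interval 0.06 to 0.88, adjusted p = 0.054), with control mice spread from 2.87 to 4.30.

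The kinases Aurka and Plk1, which mature centrosomes and set up the spindle, were not called against control at any dose. Aurka read 3.72, 3.87, 3.80, 3.78 and 4.05 in control mice, 3.79, 3.76, 3.57 and 3.70 at 0.5 Gy, 3.58, 3.93, 4.10 and 3.79 at 1.0 Gy, and 4.24, 4.02, 3.94 and 4.10 at 3.0 Gy. All 3.0 Gy mice lay above all 0.5 Gy mice, with means of 4.07 ± 0.13 and 3.71 ± 0.10 (difference 0.37, SE 0.12, adjusted p = 0.022). Leaving out 3.0 Gy replicate 1 or 0.5 Gy replicate 3 ended this call (adjusted p 0.0719 and 0.0667), as did cyclic loess (0.27, adjusted p = 0.0636). Plk1 averaged 5.14 ± 0.16 at 3.0 Gy and 5.10 ± 0.22 in control, a difference of 0.04 with a 95% interval from -0.22 to 0.31.

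Of the genes acting on chromosome structure, Top2a (topoisomerase II alpha, which untangles sister chromatids) and Mki67 (the Ki-67 protein that coats mitotic chromosomes) both rose at 3.0 Gy. Mki67 read 4.88, 5.14, 4.42, 4.17 and 5.16 in control mice, 5.16, 5.14, 5.43 and 5.42 at 0.5 Gy, 4.64, 5.28, 5.22 and 5.66 at 1.0 Gy, and 5.05, 5.36, 6.01 and 5.56 at 3.0 Gy. Of the 3.0 Gy mice, replicate 1 lay inside the control range and the other mice above it. The mean was 5.49 ± 0.40 at 3.0 Gy and 4.75 ± 0.44 in control, a change of 0.74 (SE 0.22, adjusted p = 0.0106), 1.67-fold higher. Without 3.0 Gy replicate 3 the change was 0.57 and the call ended (adjusted p = 0.0519). At the lower doses the differences of 0.54 (0.5 Gy) and 0.45 (1.0 Gy) were not called (adjusted p = 0.157 and 0.2).

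Top2a read 3.67, 3.64, 3.47, 3.33 and 3.73 in control mice, 3.80, 3.59, 3.73 and 3.58 at 0.5 Gy, 3.82, 3.73, 3.80 and 3.73 at 1.0 Gy, and 3.54, 4.20, 3.95 and 4.01 at 3.0 Gy. The groups overlapped through 3.0 Gy replicate 1. The change at 3.0 Gy was 0.36 (SE 0.12, adjusted p = 0.0209), with means of 3.93 ± 0.28 at 3.0 Gy and 3.57 ± 0.17 in control. It no longer passed without 3.0 Gy replicate 2, 3.0 Gy replicate 4 or control replicate 4 (adjusted p 0.0576 to 0.0859). Nor did it pass with only those 2 groups in the fit (0.0617) or after cyclic loess (0.26, adjusted p = 0.0812). The other Top2a sets, 1427724_at and 1442454_at, never reached the array median and differed by -0.05 and 0.02 between 3.0 Gy and control.

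At the centromere, Cenpa was the only member called at all 3 doses against control. It encodes the histone H3 variant CENP-A that marks centromeres. Its level was 5.44, 4.79, 5.36, 5.25 and 4.99 in control mice, 4.40, 4.87, 4.38 and 4.47 at 0.5 Gy, 4.40, 4.54, 4.24 and 4.38 at 1.0 Gy, and 4.42, 4.08, 3.83 and 4.09 at 3.0 Gy. All mice at 1.0 and 3.0 Gy lay below all control mice, and at 0.5 Gy replicate 2 alone lay inside the control range. The means were 5.17 ± 0.27 in control, 4.53 ± 0.23 at 0.5 Gy, 4.39 ± 0.12 at 1.0 Gy and 4.10 ± 0.24 at 3.0 Gy. Against control, the changes were -0.64 (SE 0.15, adjusted p = 0.00843), -0.78 (SE 0.15, adjusted p = 0.000811) and -1.06 (SE 0.15, adjusted p = 8.39e-06) in order of dose.

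The fall in Cenpa rests on probe set 1450842_a_at. A second set, 1444416_at, averaged 4.05 at 3.0 Gy and 4.08 in control, and with the mean of all its probe sets the gene was not called at 0.5 Gy (change -0.17, adjusted p = 0.284) or 1.0 Gy (-0.24, adjusted p = 0.0763). Between 3.0 and 0.5 Gy the Cenpa difference was -0.43 (SE 0.16, adjusted p = 0.0417), and leaving out any of 6 mice ended that call (3.0 Gy replicates 2, 3 or 4, 1.0 Gy replicate 4, 0.5 Gy replicates 2 or 4; adjusted p up to 0.163). With only those 2 groups in the fit its adjusted p was 0.0533, and with the mean of all probe sets the change was -0.12 (adjusted p = 0.331).

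Cdca8 encodes borealin, a subunit of the chromosomal passenger complex that corrects faulty attachments of chromosomes. It read 2.90, 3.46, 3.00, 3.23 and 3.34 in control mice, 3.41, 3.37, 3.73 and 3.18 at 0.5 Gy, 3.64, 3.41, 3.77 and 3.54 at 1.0 Gy, and 3.84, 3.51, 4.24 and 4.00 at 3.0 Gy. All 3.0 Gy mice lay above all control mice. The mean was 3.90 ± 0.31 at 3.0 Gy and 3.18 ± 0.23 in control, a change of 0.71 (SE 0.15, adjusted p = 0.000715). No control mouse reached its array's median for Cdca8, which passed the filter only through irradiated mice. A further Cdca8 set, 1436847_s_at, averaged 3.66 at 3.0 Gy and 2.81 in control. The remaining set, 1428480_at, never reached the array median and averaged 2.67 at 3.0 Gy and 2.60 in control. With the set used, the 1.0 Gy difference from control was 0.40 (adjusted p = 0.0782). It passed without 3.0 Gy replicate 2 or control replicate 2 (adjusted p = 0.0487 and 0.0418). Against 0.5 Gy (3.42 ± 0.23) the 3.0 Gy difference was 0.48 (SE 0.16, adjusted p = 0.0284), and leaving out any of 5 mice ended this call (3.0 Gy replicates 3 or 4, 0.5 Gy replicates 1, 2 or 4; adjusted p up to 0.109). It ended too with only those 2 groups in the fit (adjusted p = 0.05005) and after cyclic loess (0.36, adjusted p = 0.0751).

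Ube2c and Cdc20 act on the anaphase-promoting complex, which tags cyclins and securin for destruction so that chromatids part. Ube2c, its ubiquitin-conjugating enzyme, read 10.62, 10.30, 9.95, 10.60 and 10.51 in control mice, 10.36, 10.04, 10.59 and 10.30 at 0.5 Gy, 9.54, 9.45, 9.72 and 9.50 at 1.0 Gy, and 8.78, 9.35, 8.67 and 9.29 at 3.0 Gy. Control and 0.5 Gy mice overlapped, all 1.0 Gy mice lay below both, and all 3.0 Gy mice lay below all 1.0 Gy mice. At 0.5 Gy (10.32 ± 0.23) the difference from control (10.40 ± 0.28) was -0.08, with a 95% interval from -0.42 to 0.26. At 1.0 Gy (9.55 ± 0.12) the change was -0.84 (SE 0.16, adjusted p = 0.000964). At 3.0 Gy (9.02 ± 0.35) it was -1.38 (SE 0.16, adjusted p = 1.44e-06), 2.6-fold lower.

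Ube2c was also lower at 3.0 than at 1.0 Gy, by a change of -0.53 (SE 0.17, adjusted p = 0.0212), where 22.7% of genes tested were called lower and 15.9% higher. Without 3.0 Gy replicate 1 or replicate 3 this call ended (adjusted p = 0.0671 and 0.0789), as it did after repeated quantile normalization (-0.44, adjusted p = 0.0547) and cyclic loess (-0.24, adjusted p = 0.298). Between 3.0 and 0.5 Gy the change was -1.30 (SE 0.17, adjusted p = 2.66e-05), a comparison in which 20.9% of genes were called lower and 12.9% higher.

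Cdc20, an activator of the same complex, read 5.34, 5.30, 5.38, 5.29 and 5.32 in control mice, 5.33, 5.33, 5.32 and 5.22 at 0.5 Gy, 5.18, 5.46, 5.41 and 5.33 at 1.0 Gy, and 5.59, 5.52, 5.56 and 5.33 at 3.0 Gy. The groups overlapped through 3.0 Gy replicate 4, and the difference of 0.17 (95% interval -0.02 to 0.36) was not called (adjusted p = 0.119). With quantile normalization repeated on the deposited values it was 0.35 and called (adjusted p = 0.00459). The checkpoint kinase gene Bub1b, whose product BubR1 holds the complex back until chromosomes are attached, read 4.34, 4.54, 4.47, 4.10 and 4.29 in control mice, 4.84, 4.48, 4.70 and 4.66 at 0.5 Gy, 4.49, 4.46, 4.75 and 4.21 at 1.0 Gy, and 4.49, 5.04, 4.79 and 4.46 at 3.0 Gy. Its groups overlapped. The change at 3.0 Gy was 0.35 (SE 0.14, adjusted p = 0.0427), and it ended when any of 7 mice was left out (3.0 Gy replicates 2 or 3, 0.5 Gy replicates 3 or 4, control replicates 1, 4 or 5; adjusted p 0.0513 to 0.169). It also ended with only those 2 groups in the fit (adjusted p = 0.0677) and with the replicate number as a block (0.0508). The other Bub1b sets, 1416961_at and 1447363_s_at, differed by 0.15 and 0.16 between 3.0 Gy and control. The first lay above the median in 7 arrays and the second in none.

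**Figure D2:**
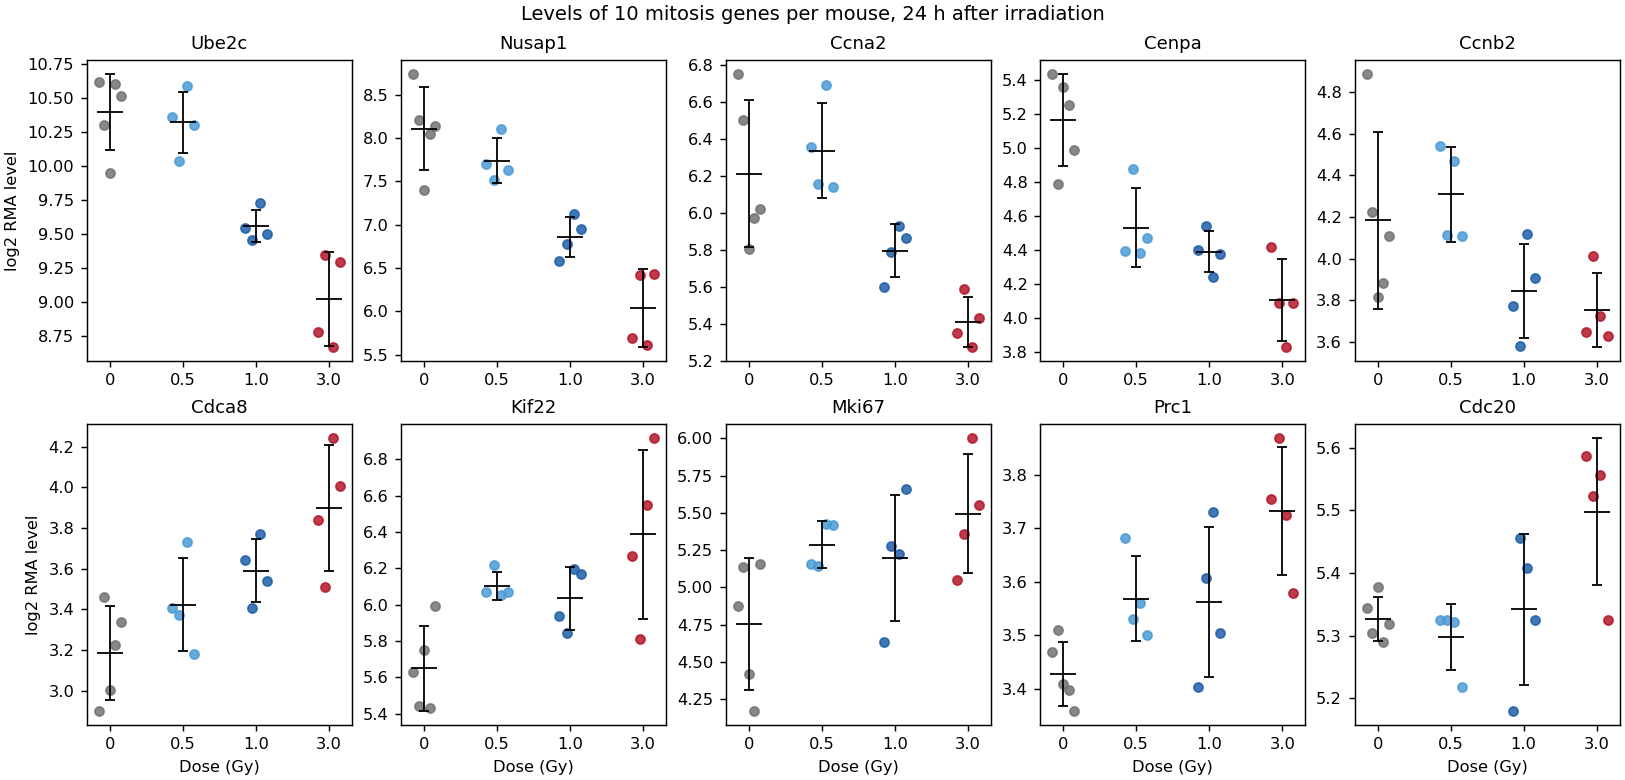
Log2 levels of 10 mitosis genes in each mouse (dots) by dose in Gy, with group means and SD bars (n = 5 at 0 Gy, n = 4 at each dose). Ube2c and Nusap1 have every 1.0 and 3.0 Gy mouse below every control mouse, while Cdca8 and Prc1 have every 3.0 Gy mouse above every control mouse.

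Spindle genes moved in both directions. Nusap1, which bundles microtubules near chromosomes, read 8.74, 8.21, 7.40, 8.05 and 8.15 in control mice, 7.70, 7.51, 8.11 and 7.64 at 0.5 Gy, 6.59, 6.78, 7.12 and 6.95 at 1.0 Gy, and 5.69, 6.42, 5.61 and 6.43 at 3.0 Gy. The 3.0 Gy mice lay below the 1.0 Gy mice, and these below the 0.5 Gy and control mice, with no overlap. The 0.5 Gy mean of 7.74 ± 0.26 differed from the control mean of 8.11 ± 0.48 by -0.37 (95% interval -0.84 to 0.10, adjusted p = 0.372). At 1.0 Gy (6.86 ± 0.23) the change was -1.25 (SE 0.23, adjusted p = 0.000486), 2.38-fold lower. At 3.0 Gy (6.04 ± 0.45) it was -2.07 (SE 0.23, adjusted p = 5.49e-07), 4.21-fold lower and the largest fall among the members tested.

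Nusap1 was lower at 3.0 than at 1.0 Gy by a change of -0.82 (SE 0.24, adjusted p = 0.0119) and lower at 3.0 than at 0.5 Gy by -1.70 (SE 0.24, adjusted p = 4.04e-05). The difference between 3.0 and 1.0 Gy was -0.55 after repeated quantile normalization (adjusted p = 0.0678) and -0.58 after cyclic loess (adjusted p = 0.0608), and -0.26 with the mean of its probe sets (adjusted p = 0.11). The second Nusap1 probe set, 1416310_at, never reached its array's median and differed by 0.11 between 3.0 Gy and control.

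Prc1, which cross-links antiparallel microtubules of the spindle midzone, read 3.47, 3.51, 3.41, 3.40 and 3.36 in control mice, 3.68, 3.53, 3.56 and 3.50 at 0.5 Gy, 3.40, 3.61, 3.73 and 3.50 at 1.0 Gy, and 3.76, 3.87, 3.72 and 3.58 at 3.0 Gy. All 3.0 Gy mice lay above all control mice. The change was 0.30 (SE 0.09, adjusted p = 0.0124), with means of 3.73 ± 0.12 at 3.0 Gy and 3.43 ± 0.06 in control. After cyclic loess it was 0.20 and not called (adjusted p = 0.0769). No control mouse reached its array's median for Prc1, which passed the filter only through irradiated mice. The other Prc1 set, 1423774_a_at, never reached the array median and averaged 1.79 at 3.0 Gy and 1.87 in control.

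The kinesin gene Kif22, whose motor pushes chromosome arms to the spindle equator, read 5.63, 5.44, 5.75, 5.43 and 6.00 in control mice, 6.07, 6.22, 6.05 and 6.07 at 0.5 Gy, 5.94, 5.84, 6.19 and 6.17 at 1.0 Gy, and 6.27, 5.81, 6.55 and 6.92 at 3.0 Gy. Every 0.5 Gy mouse lay above every control mouse, while 3.0 Gy replicate 2 lay inside the control range. The mean was 6.39 ± 0.47 at 3.0 Gy and 5.65 ± 0.24 in control, a change of 0.74 (SE 0.17, adjusted p = 0.00146). At 0.5 Gy the difference of 0.45 was not called (adjusted p = 0.108) and passed without 3.0 Gy replicate 2 (adjusted p = 0.04). Without that mouse Kif22 was also called higher at 3.0 than at 1.0 Gy (0.54, adjusted p = 0.0122) and 0.5 Gy (0.47, adjusted p = 0.0263).

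The Kif22 probe set ends in _x_at and those of Cdca8 and Prc1 in _s_at, endings given to sets that may also detect related transcripts. The other Kif22 sets, 1423813_at and 1451128_s_at, never reached the array median and differed by 0.05 and 0.41 between 3.0 Gy and control. With the mean of all probe sets of each gene, the changes at 3.0 Gy were -0.98 for Nusap1, -0.47 for Ccna2, -0.29 for Cenpa and 0.40 for Kif22, each still called. The remaining tested members were not called in any comparison: Kif23, a cytokinesis kinesin, differed by 0.22 at 3.0 Gy (95% interval -0.03 to 0.47), Tacc3, a spindle stabiliser, by 0.07 (-0.27 to 0.41) and Cdca3 by -0.09 (-0.30 to 0.11). A second Cdca3 set, 1448001_x_at, above the median in 16 arrays, went the other way, with 4.12 at 3.0 Gy and 3.78 in control. The sign for Cdca3 thus depends on the probe set.

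**Figure D3:**
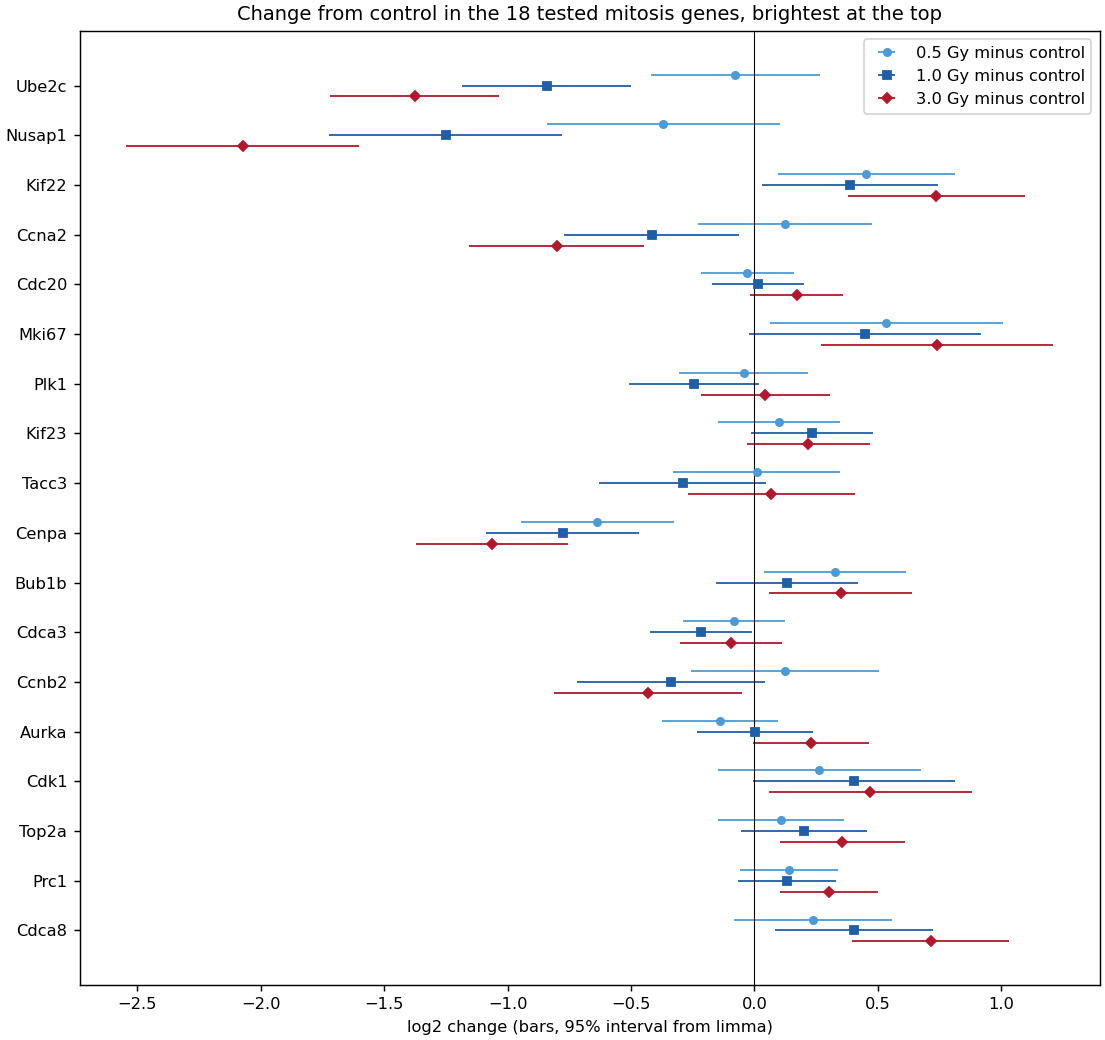
Log2 change against control at 0.5, 1.0 and 3.0 Gy for the 18 tested mitosis genes, brightest at the top, with 95% limma intervals. Nusap1, Ube2c and Cenpa shift further below 0 with each dose, and the intervals of Cdca8, Kif22 and Mki67 at 3.0 Gy lie above 0.

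Across doses, a call against control was made at 0.5 Gy for Cenpa alone (10.2% of genes tested were called in either direction, and 2.58% of dim genes lower). At 1.0 Gy the calls were Nusap1, Ube2c and Cenpa, each with all 1.0 Gy mice below all control mice, which held for 6.38% of genes tested. Between 1.0 and 0.5 Gy limma called 0 members, 4 had an unadjusted p under 0.05, and 0.0158% of all genes were called. In that comparison all 1.0 Gy mice lay below all 0.5 Gy mice for Nusap1, Ube2c and Ccna2, where this held for 1.97% of genes. With the 18S level as a covariate, none of these calls at 0.5 and 1.0 Gy passed: Cenpa differed from control by -1.01 at 0.5 Gy (adjusted p = 0.0705) and by -1.25 at 1.0 Gy (0.0623), Nusap1 by -1.03 (0.43) and Ube2c by -0.70 (0.476) at 1.0 Gy. How many of all genes kept a call against control at these doses in that fit is not given here. The losses can therefore not be read as particular to these members. In that fit none of the calls between 3.0 and 1.0 Gy or between 3.0 and 0.5 Gy passed, and over all genes tested the calls numbered 0 (4904 without the covariate) and 95 (4292). The fitted changes of Nusap1, Ube2c and Ccna2 between 3.0 and 0.5 Gy were then -1.86, -1.40 and -1.34, and those of Nusap1 and Ube2c between 3.0 and 1.0 Gy were -1.03 and -0.67. The calls of Ube2c, Nusap1, Ccna2 and Cenpa between 3.0 Gy and control stayed. The F test for a change at any dose called 8 of 18 members, against 48.2% of all genes tested. The median log2 change of the 31 measured members was 0.04 at 0.5 Gy, 0.01 at 1.0 Gy and 0.20 at 3.0 Gy. Over all genes tested it was -0.02, -0.04 and 0.04, but 24 of the measured members were dim and 13 untested. At 3.0 Gy the median was 0.12 over dim genes tested, 0.14 over untested genes and -0.13 over bright genes. The 0.20 and the 0.04 thus come from genes of unlike brightness.

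The 13 members that were not tested are Aurkb, Bub1, Birc5, Cenpe, Kif11, Kif20a, Tpx2, Ttk, Nek2, Cdkn3, Ckap2, Pbk and Melk. Their means lay between 1.92 and 3.23, and 10 of them never reached the median of any array. Just inside the filter stood Cdca8 (above the median in 7 arrays) and Prc1 (10 arrays), and just outside Birc5 (2 arrays), Tpx2 and Cenpe (1 array each). All arrays above the median for Cdca8 and Prc1 were of irradiated mice, and no control mouse reached its array's median for either. The filter thus let them in only through groups where they were high. At 3.0 Gy all 13 had a positive difference from control, from 0.09 to 0.46 with a median of 0.20. The 5497 untested genes had a median of 0.14. For Cenpe, Ttk, Cdkn3 and Melk every 3.0 Gy mouse lay above every control mouse. How many of the untested genes did the same was not counted, so no share stands beside these members. At 1.0 Gy 7 were positive and 6 negative. Members at this level cannot be ordered by these values.

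Other cell division genes, a list of 48 measured and 32 tested, moved in both directions at 3.0 Gy. Of the 32, 12 were called higher and 4 lower, where 20.0% of all genes tested were called higher and 29.2% lower. Their median change was 0.22, beside -0.13 over bright genes tested, 0.12 over dim genes tested and 0.14 over untested genes. Cdc25b, a phosphatase that activates Cdk1, averaged 6.90 at 3.0 Gy and 8.59 in control, a change of -1.69 (SE 0.19, adjusted p = 7.68e-07), and fell by 1.01 at 1.0 Gy. Cks1b, a Cdk-binding subunit, changed by -1.13 at 3.0 Gy (SE 0.23, adjusted p = 0.000427). Ncapg, a condensin subunit, rose by 0.89 (SE 0.15, adjusted p = 1e-04), and Incenp, the passenger complex scaffold, by 0.67 (SE 0.19, adjusted p = 0.00658).

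DNA replication genes gave 0 calls by limma at 0.5 Gy (3 at an unadjusted p under 0.05, 2 higher and 1 lower), 2 higher and 1 lower at 1.0 Gy, and 4 higher and 9 lower at 3.0 Gy, of 22 tested. At 3.0 Gy the median change was -0.12 over the tested genes and 0.00 over the 29 measured. Of all genes tested, 20.0% were called higher and 29.2% lower at this dose. Cdt1, which loads the replicative helicase, averaged 4.80 at 3.0 Gy and 6.98 in control (-2.18, SE 0.21, adjusted p = 1.37e-07), and Pcna, the sliding clamp, changed by -1.54 (SE 0.17, adjusted p = 6.93e-07). The helicase subunits Mcm7 and Mcm5 changed by -1.44 (SE 0.17) and -1.76 (SE 0.22). At 1.0 Gy these genes differed from control by -0.14 (Cdt1), -0.35 (Pcna), -0.30 (Mcm7) and -0.02 (Mcm5), none of them called. The genes called higher at 1.0 Gy were Dut, which clears dUTP, and Orc1, of the origin recognition complex, both named after their values were seen. Dut rose by 0.92 at 1.0 Gy (adjusted p = 0.0182) and 1.48 at 3.0 Gy (adjusted p = 0.000116), and Orc1 by 0.56 (adjusted p = 0.0342) and 1.08 (adjusted p = 5.07e-05).

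Among 15 tested regulators of this programme, 3 rose and 7 fell at 3.0 Gy, with a median change of -0.29. Of all genes tested, 20.0% were called higher and 29.2% lower at this dose. Cdkn1a differed by 0.48 (adjusted p = 0.0562) at 0.5 Gy and rose by 0.77 (adjusted p = 0.00156) at 1.0 Gy and by 1.03 (SE 0.16, adjusted p = 2.26e-05) at 3.0 Gy. Tfdp2, the dimer partner of E2F factors, changed by -0.44, -1.14 and -1.70 with rising dose (adjusted p = 0.0453, 5.05e-06 and 2.54e-08). Foxm1 (0.45, adjusted p = 0.00119) and E2f4 (0.41, adjusted p = 0.00805) rose at 3.0 Gy, both named after their values were seen. Of the 7 regulators that fell, only Tfdp2 is named here, so the named genes do not stand for the list.

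Markers of other cells moved with the dose as well. Over all genes tested, 20.0% were called higher and 29.2% lower at 3.0 Gy. Of 14 tested red cell and reticulocyte markers, 3 were lower and 1 higher at 0.5 Gy, 5 and 1 at 1.0 Gy, and 7 and 3 at 3.0 Gy. Their mean level (16 measured) ran from 6.95 to 7.57 in control mice, 6.82 to 7.03 at 0.5 Gy, 6.42 to 6.89 at 1.0 Gy and 6.44 to 6.69 at 3.0 Gy, and Hba-a1 and Car1 never reached the array median. Control replicate 1 had both the highest red cell mean and the highest control level of Ube2c, Nusap1, Ccna2 and Ccnb2. Its Ube2c level (10.62) was close to that of control replicate 4 (10.60), whose red cell mean was 7.08. The part of these cells in the falls of the mitosis genes was not tested.

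Of 9 B cell markers 1 was lower at 0.5 Gy, 1 at 1.0 Gy and 8 at 3.0 Gy. Their mean ran from 7.39 to 8.08 in control mice, 6.83 to 7.59 at 0.5 Gy, 6.93 to 7.60 at 1.0 Gy and 4.65 to 5.96 at 3.0 Gy. Of 9 T cell markers 2 were lower at 0.5 Gy, 3 at 1.0 Gy and 6 at 3.0 Gy. Of the 4 tested progenitor markers 1 was lower at 3.0 Gy, with means from 3.68 to 3.90 at 3.0 Gy and 3.78 to 3.89 in control. Of 8 tested immature granulocyte markers 1 rose and 1 fell at 3.0 Gy, and all 10 platelet markers were higher at each dose. Of 6 mature neutrophil markers 0 were called by limma at 0.5 Gy (2 at an unadjusted p under 0.05), 1 was lower at 1.0 Gy and 5 were higher at 3.0 Gy, with means from 8.73 to 9.74 at 3.0 Gy and 7.84 to 8.72 in control. Of 5 monocyte markers 1 was lower at 0.5 Gy, 0 were called at 1.0 Gy (1 at an unadjusted p under 0.05) and 4 were lower at 3.0 Gy, with means from 5.45 to 6.16 at 3.0 Gy and 6.15 to 7.04 in control. Of 5 NK cell markers 0 were called at 0.5 Gy (1 at an unadjusted p under 0.05), and 1 was lower at 1.0 Gy and at 3.0 Gy. The part of each in the changes of mitosis genes was not tested.

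**Figure D4:**
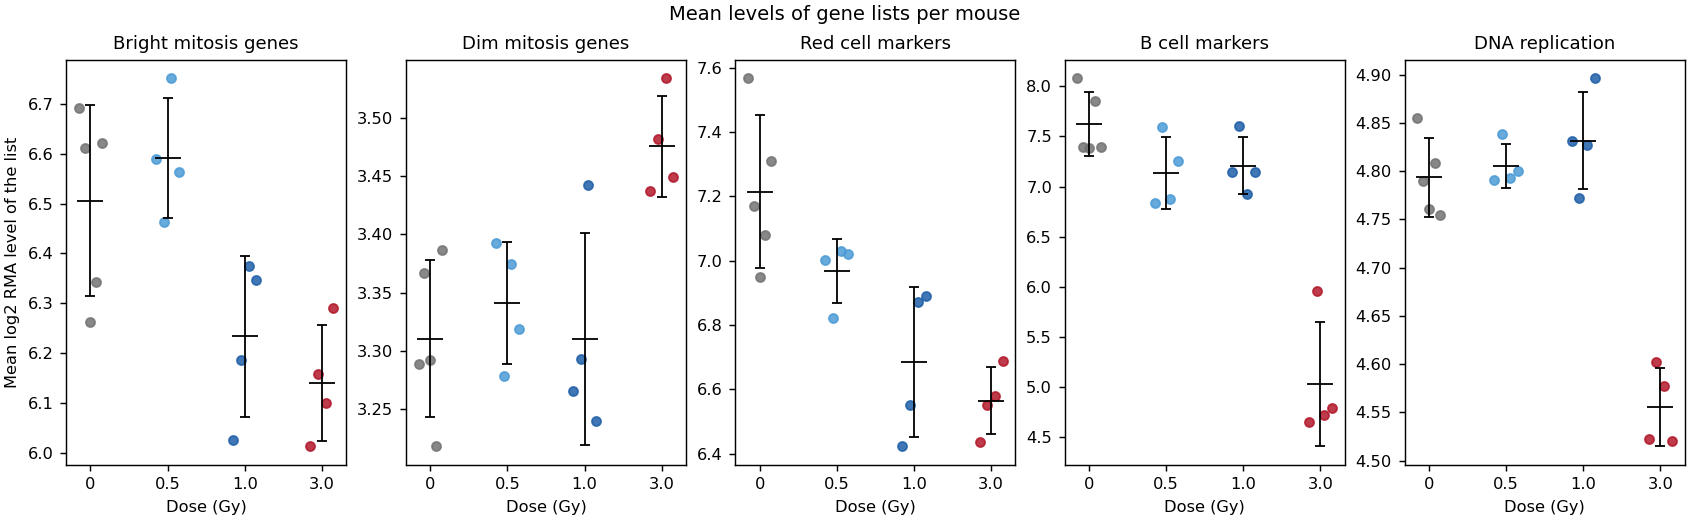
Mean log2 level per mouse (dots) by dose in Gy for bright mitosis genes, dim mitosis genes, red cell markers, B cell markers and DNA replication genes, with group means and SD bars. Bright mitosis genes run from 6.26 to 6.69 in control and 6.01 to 6.29 at 3.0 Gy, dim ones from 3.22 to 3.39 in control and 3.44 to 3.53 at 3.0 Gy, and B cell markers are lowest at 3.0 Gy.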

How the data were processed

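Values were log2 levels for 45101 probe sets that the authors deposited. RMA (a summary of each set's probes after background correction and quantile normalization) and R 3.3.2 are named per the submitters' processing notes, and 200 ng of total RNA went into each reaction per the labels' protocols. The RMA settings used were not given in the sources. Such normalization removes part of any change shared by most genes and compresses changes of dim genes.

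From these values, 34945 probe sets with 1 symbol gave 18193 genes, each taken by its brightest probe set (932 with several symbols were left out). The 12696 genes above the array's 50th percentile in at least 4 arrays were tested with limma 3.58.1 in R 4.3.3, with group means over 17 arrays and Benjamini-Hochberg adjustment. Folds are 2 to the size of the log2 difference. The method was tested on simulated data. Promoter windows came from RefSeq (GRCm38.p6).

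Members with values per mouse were those called in any of 6 contrasts and the 6 brightest. From each other gene list up to 4 called genes with the smallest p at 3.0 Gy were named, and Cdkn1a in any case. Dut, Orc1, Foxm1 and E2f4 were named after their values were seen. Members and lists were chosen with earlier results of these data known. Alternatives changed the filter, normalization, probe set choice, prior, samples in the fit, replicate block, 18S covariate and arrays left out.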

Additional observations from a re-analysis of the deposited data

Results flagged for a closer look

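In 2 of the 60 sets of replicate values examined, 1 mouse stood apart from the others by Dixon's criterion for small groups, and chance gives about 1 in 20. Cdc20 at 0.5 Gy read 5.22 in replicate 4, with the other mice at 5.32 to 5.33. Kif22 at 0.5 Gy read 6.22 in replicate 2, with the other mice at 6.05 to 6.07.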

How the results depend on the processing

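Of 23 called gene comparisons, 0 reversed and 6 kept their call under every alternative that tested them, all at 3.0 Gy against control. These were Ube2c, Nusap1, Ccna2 and Cenpa under 27 alternatives, 17 of them left-out arrays, Kif22 under 26 (not tested without _x_at and _s_at sets) and Cdca8 under 24 (not tested there, with the 75th percentile filter or with the mean of probe sets). Cdca8 passed the main filter only through irradiated mice. It kept its call with no filter as well, although no control mouse reached its array's median. The cause of the moves below was not tested, except that stricter filters and other probe set choices test fewer members (18 as reported, 31 with no filter, 9 at the 75th percentile, 13 with the mean of probe sets, 15 without _x_at and _s_at sets). Members higher at 3.0 Gy against control numbered 6, and 9 with no filter, 9 with repeated quantile normalization, 2 with the 75th percentile filter, 3 with the mean of probe sets and 3 without _x_at and _s_at sets. With the 18S level as covariate, members lower numbered 0 for 1.0 Gy against control (3 as reported), 0 for 0.5 Gy (1), 0 for 3.0 against 1.0 Gy (2) and 0 for 3.0 against 0.5 Gy (5), and higher there 0 (2). The 18S level differed between dose groups, so in that fit it cannot be told apart from the dose. With the mean of probe sets, lower at 0.5 Gy was 0, higher and lower for 3.0 against 1.0 Gy were 1 and 1 (0 and 2 as reported), and higher for 3.0 against 0.5 Gy was 1. Repeated quantile normalization gave 3 higher and 0 lower for 3.0 against 1.0 Gy. No filter gave 3 higher there and 6 for 3.0 against 0.5 Gy, where the 75th percentile filter gave 0, and no _x_at or _s_at sets, only the groups compared and cyclic loess gave 1 each. Cyclic loess, chosen after seeing the data, also gave 1 higher at 1.0 Gy (0 as reported) and 0 lower for 3.0 against 1.0 Gy, and only the groups compared gave 1 higher at 0.5 Gy (0). Apart from the 18S fit for 3.0 against 1.0 and 0.5 Gy, no count over all genes is given beside these alternatives. The moves can therefore not be read as particular to the members.

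With bright set at a level of 7, Ube2c and Nusap1 remain bright, with median changes of -0.22, -1.05 and -1.72 at 0.5, 1.0 and 3.0 Gy. Leaving out each array gave 0 to 1 higher and 1 lower at 0.5 Gy, 0 to 1 and 3 to 4 at 1.0 Gy, and 4 to 7 and 4 to 5 at 3.0 Gy. For 3.0 against 1.0 Gy it gave 0 to 2 higher and 1 to 2 lower, for 3.0 against 0.5 Gy 1 to 3 and 3 to 5, and 6 to 9 by the F test (8). Calls over all genes moved too, from 765 to 1622 at 0.5 Gy, 1704 to 2344 at 1.0 Gy and 5400 to 6403 at 3.0 Gy. For 3.0 against 1.0 Gy they ran from 3566 to 5759, and for 3.0 against 0.5 Gy from 3083 to 4487.

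With the replicate number as a block, 1 member was higher at 1.0 Gy and 1 at 0.5 Gy (0 each without it), and Bub1b at 3.0 Gy lost its call (adjusted p = 0.0508). After group means were removed, same-numbered mice of 2 groups correlated with r from -0.45 to 0.49 (median 0.07) over 24 pairs, 11 over 0.1. Differently numbered mice were not compared, so these values do not decide whether the numbers pair the mice.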
